A study of Mus musculus with 5 samples.

Results

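DNaseI hypersensitive sites (DHSs) mark chromatin that the nuclease DNase I can reach and cut, and they were examined here at 9 genes of red blood cell biology and at both globin gene clusters. The genes were Hba-a1, Hbb-y, Hbb-bh1, Alas2, Slc4a1, Ank1, Klf1, Epor and Tfrc, which are 9 of 21774 protein-coding genes of the reference. They were found by symbol in RefSeq on the mouse build mm10 (GRCm38). For each gene, the sites within 1 kb of any transcription start site (TSS) were taken as promoter sites. Sites inside the gene or within 100 kb of a TSS formed its neighbourhood, and the globin clusters were followed for 100 kb upstream of their first gene.

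The lists came from 5 successive populations of cells that were grown in culture from mouse embryonic stem cells of strain 129, in which GFP reports the expression of Brachyury (Bry), a gene of early mesoderm. Both of the first populations were Bry.GFP+, and FLK1 told them apart: mesoderm (MES) was FLK1- and hemangioblasts (HB) were FLK1+. The hemogenic endothelium (HE) was Bry.GFP+, Tie2+ and Ckit+ but CD41-. Hematopoietic progenitors (HP) were sorted as CD41+ cells, and macrophages (MAC) as CD11b+ cells. No population was sorted on an erythroid surface marker. There was 1 list per stage, so no difference between stages can be set against a spread between replicates, and no test was made.

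Red cells carry oxygen with hemoglobin, which is built of alpha-like and beta-like globin chains around heme. Each globin cluster holds genes used in the embryo and genes used later, and both clusters depend on groups of distant enhancers, called R1 to R4 and Rm in the alpha cluster and the locus control region (LCR) in the beta cluster. The transcription factors GATA1, TAL1, NF-E2 and KLF1 act at these elements. The first blood cells formed in the embryo, and in differentiating embryonic stem cells, include red cells that use the embryonic globins.

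The lists held 17734 sites in HP to 37456 in MAC, with a median width between 600 bp in MAC and 1200 bp in HE. The HP list was the shortest. The deposited values were positions alone. The paper states that it gives aligned read totals for its experiments, but depth was not used here. Thus "no site" says only that the list holds none there. At the promoters of the marker genes of each stage, a site was listed for 4 of 4 MES markers in MES, 4 of 4 HB markers in HB, 4 of 4 HE markers in HE and 4 of 4 MAC markers in MAC. HP had a promoter site at 3 of 4 of its markers, Itga2b, Kit and Runx1. The fourth, Gfi1b, a transcriptional repressor needed for red cells and platelets, had a promoter site in MAC only. These markers did not separate all stages: those of HP were also listed at 3 of 4 in HE, those of HB at 3 of 4 in each of MES, HE and HP, and those of MES at 4 of 4 in HB.

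Of the upstream enhancers of the alpha-globin cluster on chromosome 11, R1, R2, R3 and Rm had sites in HP and in no other stage, and R4 had none in any list. In the window from 100 kb upstream of Hba-x to the end of Hbq1a (chr11:32176600-32300873), 9 sites were listed in HP, against 6 in MES, 5 in HB, 6 in HE and 6 in MAC. A set of 5 HP sites had no counterpart in another list: they lay at the enhancers R1, R2, R3 and Rm, and at the promoter of Hba-x, the gene of the embryonic zeta-globin chain. The R1 site was 1000 bp wide (chr11:32245464-32246463), the R2 site 700 bp (chr11:32250664-32251363), the R3 site 500 bp (chr11:32255964-32256463) and the Rm site 500 bp (chr11:32264964-32265463). By their middles these sites lay 30.6, 25.6, 20.4 and 11.4 kb upstream of the Hba-x TSS. All 4 fell in introns of Nprl3, a neighbouring gene with no globin function, whose introns house the alpha-globin enhancers. The Hba-x site was 800 bp wide (chr11:32276164-32276963), and its middle was 37 bp from the TSS.

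**Figure D1:**
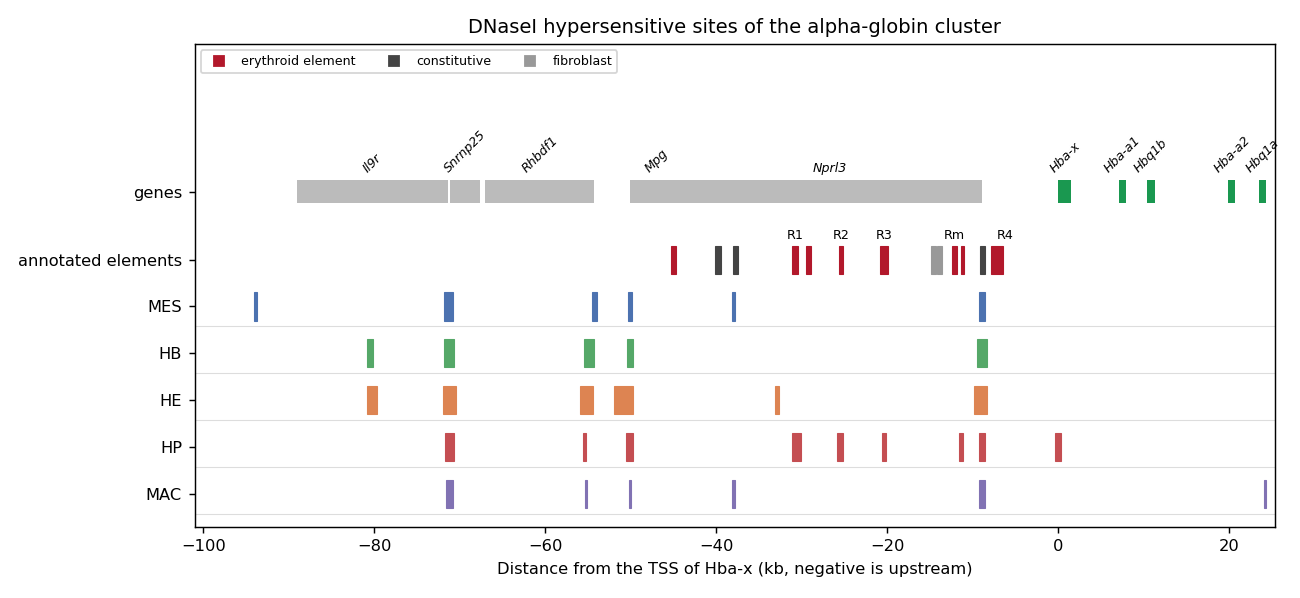
Map of the alpha-globin cluster, with distance from the TSS of Hba-x in kb on the x axis. Coloured bars are the listed sites of each stage, to scale, the row above them shows the hypersensitive elements annotated in RefSeq by the cell type in which they were described, and the top row the genes; 5 HP bars, at R1, R2, R3, Rm and Hba-x, stand where the other stages have none.

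RefSeq annotates 8 elements of the alpha cluster as erythroid sites or as the Rm enhancer. Sites of the HP list overlapped 4 of them, and sites of MES, HB, HE and MAC overlapped 0 of 8. Of 92 annotated hypersensitive elements of any tissue outside both globin windows, 7.61% were overlapped by a site in HP, with 10.9%, 13.0%, 20.7% and 10.9% in MES, HB, HE and MAC. The erythroid elements without a site in any stage were R4 and those 45.0, 29.2 and 12.1 kb upstream of Hba-x. The element 12.1 kb upstream ended 172 bp from the Rm site of HP, and R4 began 702 bp beyond the HP site at the Nprl3 promoter. The HP count rested partly on narrow sites: when each list was limited to sites of its median width or more, R1 alone of the 8 was overlapped. The whole window then held 2 sites in HP and 5 in HE, so the order of these stages turned round. When every list was instead shortened to as many of its widest sites as HP has, which leaves HP whole, the window held 9 sites in HP, 5 in HE and 2 in MAC. HE alone had a 500 bp site in an intron of Nprl3 (chr11:32243411-32243910), whose end lay 1594 bp from R1.

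Other sites of the alpha window were shared between stages or lay in a single list away from the enhancers. The promoters of Il9r, Snrnp25, Rhbdf1, Mpg and Nprl3, neighbours of the globin genes, had a site in all 5 stages. The site at the Nprl3 promoter, which RefSeq annotates as a constitutive element 8.9 kb upstream of Hba-x, was 1500 bp wide in HE, 1100 bp in HB and 700 bp in each of MES, HP and MAC. A second constitutive element, 37.8 kb upstream, was overlapped in MES and MAC only. MES alone had a 400 bp intergenic site 93.9 kb upstream (chr11:32182517-32182916). Downstream, Hbq1a, a theta-globin gene, had a 200 bp site in MAC only (chr11:32300667-32300866), 598 bp from its TSS. The fibroblast elements, 2 in number, had no site.

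The adult gene Hba-a1 itself (chr11:32283672-32284486, plus strand), which makes the alpha chain, had no promoter site in any stage. The site nearest to its TSS was 6709 bp away in HP, and 15656, 15466, 15462 and 15606 bp away in MES, HB, HE and MAC. In HP this was the site at Hba-x, and in the other stages the one at the Nprl3 promoter. The whole neighbourhood of Hba-a1 held 11 sites in HP and 11 in HE, against 7 in MES, 7 in HB and 9 in MAC. On its far side HE had 3 sites of its own, 57.5, 62.1 and 65.1 kb downstream of the Hba-a1 TSS and close to Sh3pxd2b, so HE and HP reached the same number with partly different sites. No site was listed within 1 kb of Hba-a2, the second copy of the gene, or of Hbq1b either. Hba-a1 and Hba-a2 are close to identical, and the authors kept only reads with a single place in the genome. Of the 50-base words in the 1 kb around the Hba-a1 TSS, 89.3% recurred in the cluster region, against 91.2% at Hba-a2, 32.2% at both Hbq1b and Hbq1a, and 0 at Hba-x. Its part in the absence of sites was not tested.

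The central 300 bases of the HP sites follow, read from GRCm38 on the plus strand, to show the letters of the erythroid factors within the enhancers. Capitals mark AGATAA and TGATAA and also AGATAG and TGATAG (letters of GATA factors), GCTGAGTCA (NF-E2) and CCNCNCCC (KLF factors), on either strand, with overlapping matches joined. The regions are R1 at chr11:32245814-32246113, R2 at chr11:32250864-32251163, R3 at chr11:32256064-32256363, Rm at chr11:32265064-32265363 and the Hba-x promoter at chr11:32276414-32276713.
R1: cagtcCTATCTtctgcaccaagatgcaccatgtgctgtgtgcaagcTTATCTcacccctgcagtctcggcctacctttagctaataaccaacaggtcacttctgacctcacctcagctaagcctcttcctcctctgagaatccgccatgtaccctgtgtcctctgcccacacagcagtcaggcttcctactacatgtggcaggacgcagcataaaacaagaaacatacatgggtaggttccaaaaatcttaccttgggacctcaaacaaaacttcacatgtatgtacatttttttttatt
R2: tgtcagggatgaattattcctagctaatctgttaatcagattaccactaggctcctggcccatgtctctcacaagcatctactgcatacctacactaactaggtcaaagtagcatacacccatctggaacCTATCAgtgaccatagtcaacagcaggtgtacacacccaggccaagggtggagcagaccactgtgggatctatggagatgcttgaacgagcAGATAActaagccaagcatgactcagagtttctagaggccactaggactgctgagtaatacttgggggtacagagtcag
R3: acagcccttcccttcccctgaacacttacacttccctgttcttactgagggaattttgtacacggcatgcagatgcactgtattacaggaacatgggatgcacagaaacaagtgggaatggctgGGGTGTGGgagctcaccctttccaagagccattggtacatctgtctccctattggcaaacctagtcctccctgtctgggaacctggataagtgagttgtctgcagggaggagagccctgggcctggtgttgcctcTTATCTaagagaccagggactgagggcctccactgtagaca
Rm: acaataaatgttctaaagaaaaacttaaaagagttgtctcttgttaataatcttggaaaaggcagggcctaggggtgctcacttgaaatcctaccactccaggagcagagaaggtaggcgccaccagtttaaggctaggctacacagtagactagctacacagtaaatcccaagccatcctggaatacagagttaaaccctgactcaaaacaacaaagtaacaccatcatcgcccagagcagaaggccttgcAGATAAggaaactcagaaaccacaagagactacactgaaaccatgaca
Hba-x promoter: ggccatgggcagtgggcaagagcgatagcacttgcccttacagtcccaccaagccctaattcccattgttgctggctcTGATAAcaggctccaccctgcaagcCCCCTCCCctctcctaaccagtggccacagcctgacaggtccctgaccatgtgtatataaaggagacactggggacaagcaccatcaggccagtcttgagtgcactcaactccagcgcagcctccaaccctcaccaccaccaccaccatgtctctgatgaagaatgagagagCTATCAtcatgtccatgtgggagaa

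Within these 300 bases, AGATAA was present once in each of R1, R2, R3 and Rm, and the form TGATAA in the Hba-x promoter. The 300 bases cover only part of each annotated enhancer, and the central 500 bases of the R1 region held AGATAA 2 times. Of all 50519 merged regions that lay more than 2 kb from protein-coding TSSs, 18.3% held AGATAA in their central 300 bases, and 41.6% any of the 4 GATA forms. R3 and the Hba-x promoter also held 1 match each to CCNCNCCC, which 31.0% of those regions hold. The Hba-x region lies at a TSS, so these distal shares are no background for it. None of the 5 regions held GCTGAGTCA, which 2.04% of the regions hold. These are matches of letters. The paper mapped the binding of GATA1, GATA2 and TAL1 in HP by chromatin immunoprecipitation, but no binding data were used here.

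The beta-globin cluster on chromosome 7 had few sites in any list. Over the window from Hbb-bt to 100 kb upstream of Hbb-y (chr7:103812524-103953207), 3 sites were listed in HP, 2 in HE, 1 in MAC and 0 in both MES and HB. In MES the site nearest to the TSS of Hbb-y lay 365274 bp away, and in HB 365252 bp. The distance was 7420, 7570 and 7603 bp in HE, HP and MAC, in all 3 cases to HS2 of the LCR. HS2, a strong enhancer of the LCR, was the element shared by HE, HP and MAC. Its site was 1100 bp wide in HE (chr7:103860627-103861726), 700 bp in HP (chr7:103860777-103861476) and 500 bp in MAC (chr7:103860810-103861309). RefSeq describes HS2 as hypersensitive in erythroid and in multimyeloid cells.

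HS3, the second main enhancer of the LCR, had a site in HP only, 600 bp wide (chr7:103865677-103866276). The nearest HE site ended 3640 bp short of it. One more place, 57.1 kb upstream of Hbb-y between olfactory receptor genes, is annotated as a hypersensitive element without a cell type. It had a 1500 bp site in HE (chr7:103909427-103910926) and a 1000 bp site in HP (chr7:103909577-103910576). Of the 12 elements of the cluster annotated as erythroid, 2 were overlapped in HP, 1 in each of HE and MAC, and 0 in MES and HB. These counts are to be read against the shares of elements outside the windows given above, 7.61%, 20.7% and 10.9% for HP, HE and MAC, and the 1 of 12 in HE and in MAC is not above them. HS1, HS4, HS5, HS6 and the elements within and downstream of the genes had no site in any list. When each list was limited to sites of its median width or more, the counts of HE, HP and MAC were all 0.

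**Figure D2:**
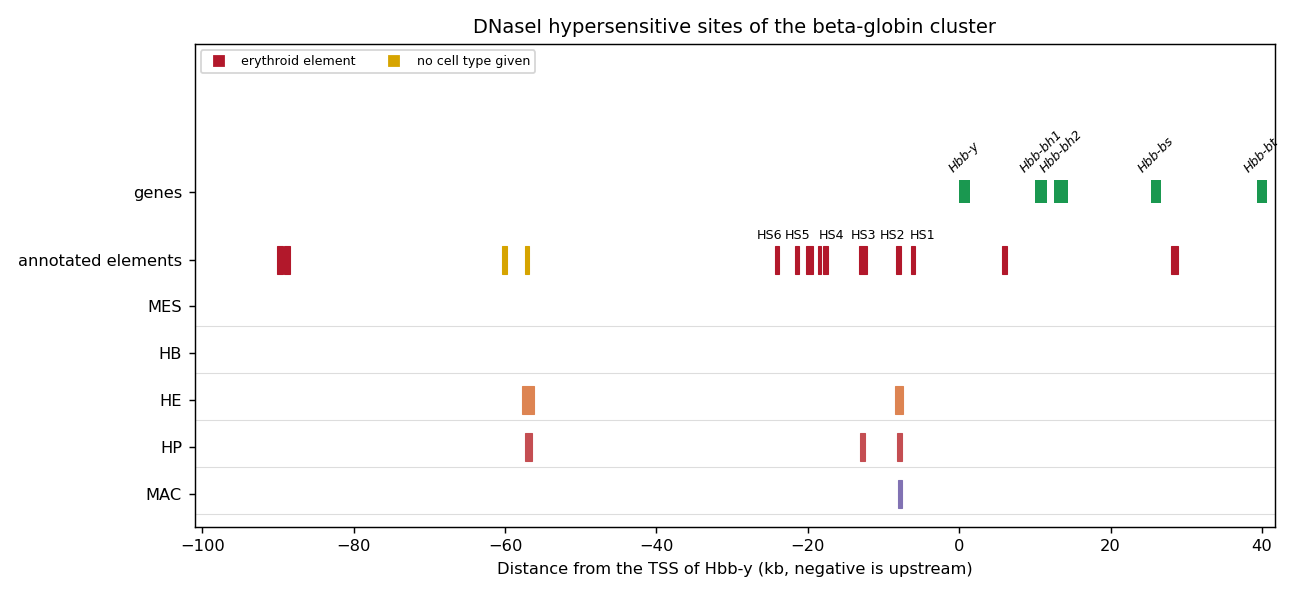
Map of the beta-globin cluster, with distance from the TSS of Hbb-y in kb on the x axis, drawn as for the alpha cluster. MES and HB have no bar in the window, HE, HP and MAC share the bar at HS2, HP alone has the bar at HS3, and HE and HP share the bar 57.1 kb upstream.

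No globin gene of the beta cluster had a promoter site in any stage. Hbb-y (chr7:103851754-103853207, minus strand) and Hbb-bh1 (chr7:103841638-103843162, minus strand) are the embryonic genes, and Hbb-bs and Hbb-bt the adult ones. For Hbb-bh1 the nearest site was 375319 and 375297 bp away in MES and HB, and 17465, 17615 and 17648 bp away in HE, HP and MAC. In HE, HP and MAC this was HS2 again. Repeated sequence was rare at these genes: 0 of the 50-base words around the TSS of Hbb-y and of Hbb-bh1 recurred in the cluster region, against 34.9% at Hbb-bs and 34.5% at Hbb-bt. Hba-x, the embryonic gene of the alpha cluster with a promoter site in HP, was as free of repeated words as they were. The reads were of strain 129 and were aligned to the reference strain, so the sequences printed are those of the reference. Whether the reference fits strain 129 at the adult genes Hbb-bs and Hbb-bt was not tested, which limits what the absence of a listed site there shows.

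The central 300 bases of the beta-cluster sites of HP are given on the minus strand, the strand of the globin genes, with capitals as for the alpha cluster. HS2 is at chr7:103860977-103861276, HS3 at chr7:103865827-103866126 and the far upstream element at chr7:103909927-103910226.
HS2: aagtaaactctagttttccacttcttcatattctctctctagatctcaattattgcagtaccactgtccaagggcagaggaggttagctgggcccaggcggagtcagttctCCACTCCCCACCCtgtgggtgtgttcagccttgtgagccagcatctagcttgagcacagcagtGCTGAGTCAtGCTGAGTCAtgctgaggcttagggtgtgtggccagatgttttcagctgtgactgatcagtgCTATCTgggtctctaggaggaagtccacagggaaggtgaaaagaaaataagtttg
HS3: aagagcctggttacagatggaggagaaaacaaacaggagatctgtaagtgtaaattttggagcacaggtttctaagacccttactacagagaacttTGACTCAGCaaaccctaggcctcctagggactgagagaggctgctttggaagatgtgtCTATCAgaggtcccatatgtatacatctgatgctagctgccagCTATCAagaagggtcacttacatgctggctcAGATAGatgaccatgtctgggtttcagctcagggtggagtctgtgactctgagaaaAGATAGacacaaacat
Far upstream element: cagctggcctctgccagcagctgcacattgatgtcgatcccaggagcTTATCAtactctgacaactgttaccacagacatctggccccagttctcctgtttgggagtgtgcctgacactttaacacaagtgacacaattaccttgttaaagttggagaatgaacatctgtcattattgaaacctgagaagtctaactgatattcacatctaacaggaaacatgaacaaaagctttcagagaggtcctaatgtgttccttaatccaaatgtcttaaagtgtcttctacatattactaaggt

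HS2 held GCTGAGTCA 2 times in tandem, the repeated NF-E2 letters for which this enhancer is known. HS3 held it once, on the other strand, and the far upstream element did not hold it. HS2 also held 2 overlapping matches to CCNCNCCC. HS3 held 4 of the wider GATA forms, HS2 1 and the far upstream element 1, and none of the 3 held AGATAA itself. R1, R2, R3 and Rm, by contrast, held AGATAA, and like the far upstream element they held no exact GCTGAGTCA in the same length. Near matches were not counted: R2 holds tgactcaga, which differs in its last letter alone from GCTGAGTCA read on the opposite strand.

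Alas2, the erythroid enzyme of the first step of heme synthesis (chrX:150547417-150570622, plus strand), had no promoter site in any stage. It had a site in the first of its introns in HE, 1000 bp wide (chrX:150549316-150550315), and in HP, 800 bp wide (chrX:150549484-150550283). The edge of the site was 1864 bp from the TSS in HE and 2032 bp in HP. In MES, HB and MAC the nearest site was 40562, 40411 and 40587 bp away. The intronic site overlapped an element (chrX:150549751-150549952) that RefSeq annotates as an erythroid regulatory module of Alas2. A further annotated module (chrX:150564461-150565006) had no site. The neighbourhood held 4 merged regions in all, and each of the other 3 was listed in MES, HB, HE and MAC. HP also had each of these except the one at the Pfkfb1 promoter.

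The central 300 bases of the HP site in Alas2 (chrX:150549734-150550033, plus strand) held TGATAA and, on the opposite strand, AGATAA, together with a match to CCNCNCCC.
Alas2 intron: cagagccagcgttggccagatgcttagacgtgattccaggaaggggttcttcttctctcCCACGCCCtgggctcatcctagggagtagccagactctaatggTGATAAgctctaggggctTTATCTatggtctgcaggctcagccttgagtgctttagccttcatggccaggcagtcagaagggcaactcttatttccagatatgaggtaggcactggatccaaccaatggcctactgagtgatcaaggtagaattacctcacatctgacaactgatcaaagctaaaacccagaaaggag

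Slc4a1 encodes band 3, the anion exchanger of the red cell membrane (chr11:102348820-102365281, minus strand). It had no promoter site, and the sites inside the gene differed between stages. HP had a 400 bp site in the first intron (chr11:102363664-102364063), 1218 bp from the TSS. MAC had another 400 bp site in intron 19 of the 20-exon transcript (chr11:102350567-102350966), 14315 bp from the TSS. MES, HB and HE had no site in the gene, and their nearest sites were 10436, 27526 and 9830 bp from the TSS. The MES and HE sites, with one of HP, formed a merged region upstream of the gene (chr11:102375264-102376216). Farther upstream of the gene HP alone had a 600 bp site within Itga2b (chr11:102460464-102461063), the gene of CD41, the antigen by which HP was sorted.

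The central 300 bases of the HP site in the first intron of Slc4a1 (chr11:102363714-102364013, minus strand) held AGATAA and TGATAA, both on the opposite strand.
Slc4a1 intron: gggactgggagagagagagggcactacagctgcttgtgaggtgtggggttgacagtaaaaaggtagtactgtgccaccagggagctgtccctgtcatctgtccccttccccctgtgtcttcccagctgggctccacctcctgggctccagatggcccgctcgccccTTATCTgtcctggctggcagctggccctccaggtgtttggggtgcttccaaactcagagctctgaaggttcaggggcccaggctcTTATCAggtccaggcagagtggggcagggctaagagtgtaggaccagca

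**Figure D3:**
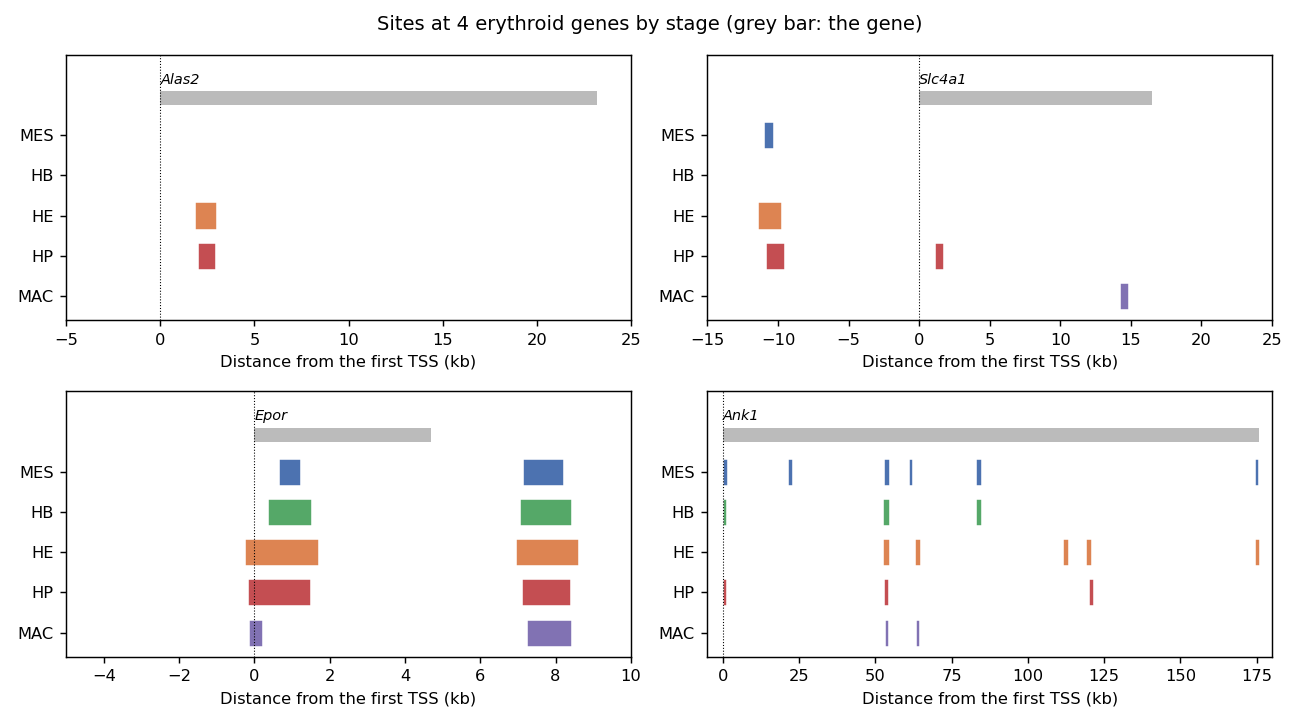
Sites at Alas2, Slc4a1, Epor and Ank1, with distance from the first TSS of each gene in kb on the x axis, positive into the gene, and 1 row of bars per stage. Alas2 has bars in HE and HP alone, Slc4a1 has an HP bar near the TSS and a MAC bar far into the gene, the bars at Epor reach over the TSS in HE, HP and MAC, and the shared bars 7 to 8 kb into the Epor panel belong to a neighbouring promoter.

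Ank1 encodes ankyrin, which ties band 3 to the membrane skeleton, and has 8 annotated TSS positions over its 175666 bp (chr8:22974836-23150501, plus strand). The promoter sites lay at different TSSs in different stages. Near the first TSS a site was 600 bp wide in MES, 600 bp in HB and 400 bp in HP, at 359, 289 and 307 bp from it. The inner promoter at chr8:23058259 was covered by a site of 900 bp in MES and 1100 bp in HB, and by none in HE, HP or MAC. MES had a further 300 bp site, 996 bp from another TSS. HE and MAC had no promoter site, although HE had 5 sites touching the gene and MAC 2. The pattern of MES, HB and HP without HE and MAC was shared by 62 genes, 0.285% of all, and by 0 genes of the erythroid lists.

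HP alone had a 600 bp site 156 bp from an inner TSS of Ank1 (chr8:23095343-23095942), known from 1 predicted transcript. Its sequence is shown because it is repetitive: 74.3% of the central 300 bases (chr8:23095493-23095792, plus strand) are marked as repeats in the reference, against 0 to 19.3% in the other printed regions. The last 22 bases, ggacctggaatatggcgagaaa, occur 78 times on 8 chromosomes of the reference, and are letters of the major satellite repeat of the mouse. None of the searched letters was found in it.
Ank1 inner site: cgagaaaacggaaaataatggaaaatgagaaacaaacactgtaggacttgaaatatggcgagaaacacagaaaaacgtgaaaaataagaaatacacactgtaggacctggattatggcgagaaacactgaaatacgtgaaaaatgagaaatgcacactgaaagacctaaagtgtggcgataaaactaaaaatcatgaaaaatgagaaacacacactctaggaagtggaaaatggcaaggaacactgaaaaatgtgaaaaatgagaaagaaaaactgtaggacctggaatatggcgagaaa

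Klf1 encodes the erythroid Krüppel-like factor that binds CACCC boxes of the globin genes (chr8:84901982-84905291, plus strand). A site was listed at the gene in all 5 stages, MES included. It was 1100 bp wide in MES (chr8:84902695-84903794) and 1000 bp in HP (chr8:84902743-84903742), and 1300, 1500 and 700 bp wide in HB, HE and MAC. In no stage did it cover the TSS. Its near edge was 713, 643, 542, 761 and 944 bp from the TSS in MES, HB, HE, HP and MAC, and its middle lay in exon 2 of 3 in every list. Counted by the middle of the interval, Klf1 had no promoter site in any stage.

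The neighbourhood of Klf1 was dense in sites, with 26 in MES, 24 in HP, 23 in both HB and HE, and 21 in MAC. At most 1.11% of all genes had as many in the same list. Of these sites 11 to 15 lay at the promoters of other genes, among them Calr, Farsa, Syce2, Gcdh and Hook2. Of the 39 merged regions, 14 were listed in all 5 stages, 9 were listed in HE or HP and not in MES, and 2 were listed in HP alone. One of these 2 lay in an intron of Prdx2 (chr8:84970843-84971342), the gene of an abundant red cell peroxidase, and its central 500 bases held AGATAA 2 times. Regions were merged by the middles of sites, so some of the 9 regions without MES come from deposited sites that overlap a MES site. The HE site at chr8:84975824-84980323, for example, contains the MES site at chr8:84978695-84978994.

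Epor encodes the receptor of erythropoietin, the hormone that keeps red cell precursors alive (chr9:21958897-21963576, minus strand). It had a site within 1 kb of a TSS in all 5 stages, but of unequal width. The site was 500 bp wide in MES (chr9:21962401-21962900), 1100 bp in HB (chr9:21962101-21963200), 1900 bp in HE (chr9:21961901-21963800), 1600 bp in HP (chr9:21962130-21963729) and 300 bp in MAC (chr9:21963401-21963700). In HE and HP it covered 2 of the 3 TSSs, in MAC 1, and in MES and HB none, with its edge 399 and 99 bp away. Of the HP list, 1.83% of sites were at least as wide as its Epor site, and of the HE list 6.55%. The shares were 39.8%, 78.5% and 88.6% for the sites of HB, MES and MAC. When the sites were merged by their middles, the MAC site formed a region of its own at the TSS, and the MES, HB, HE and HP sites formed another about 500 bp into the gene. As deposited, the MAC site lay wholly within the HE and HP sites, although its region counts as one of MAC alone. A region listed in HE, HP and MAC (chr9:21923851-21924529), in an intron of Tmem205 downstream of the gene, held both AGATAA and GCTGAGTCA.

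Tfrc encodes the transferrin receptor, which brings iron into all dividing cells and into red cell precursors above all (chr16:32608896-32632794, plus strand). Its promoter site covered both TSSs in every list. It was 1100, 1400, 1700, 1300 and 1000 bp wide in MES, HB, HE, HP and MAC, widths that 12.2 to 23.8% of the sites of the same list reached. The neighbourhood held 11 sites in HE and 6 in HP, against 3 in MES, 7 in HB and 8 in MAC. Of its 21 merged regions, 10 were listed in HE or HP and not in MES, and 2 in all 5 stages. HE and HP shared 2 of these in introns of Tnk2 (chr16:32665960-32666518 and chr16:32682160-32683018), and a region far upstream (chr16:32509397-32510018) was shared by HB, HE and HP.

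Counted together, 4 of the 9 genes had a promoter site in each of MES, HB and HP, and 3 in each of HE and MAC. Of all protein-coding genes, 55.5%, 57.1% and 48.6% had one in MES, HB and HP, and 59.9% and 48.7% in HE and MAC. Klf1, Epor and Tfrc were listed in all 5 stages, as were 42.0% of all genes. Hba-a1, Hbb-y, Hbb-bh1, Alas2 and Slc4a1 were listed in none, as were 34.3% of all genes. No member had a promoter site that was present in HE or HP and missing in MES, a class of 7.53% of all genes. Apart from Ank1, the 9 genes had either a promoter site in all stages or none. Neither statement held under all settings. When each list was limited to sites of its median width or more, Epor kept a promoter site in HB, HE and HP and had none in MES and MAC. Ank1 then lost its promoter site in HP and kept it in MES and HB. With the widest sites of each list, as many as HP has, Epor lost its site in MAC. With a reach of 2 kb, Alas2 had a promoter site in HE alone and Slc4a1 in HP alone, and Ank1 gained one in HE.

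**Figure D4:**
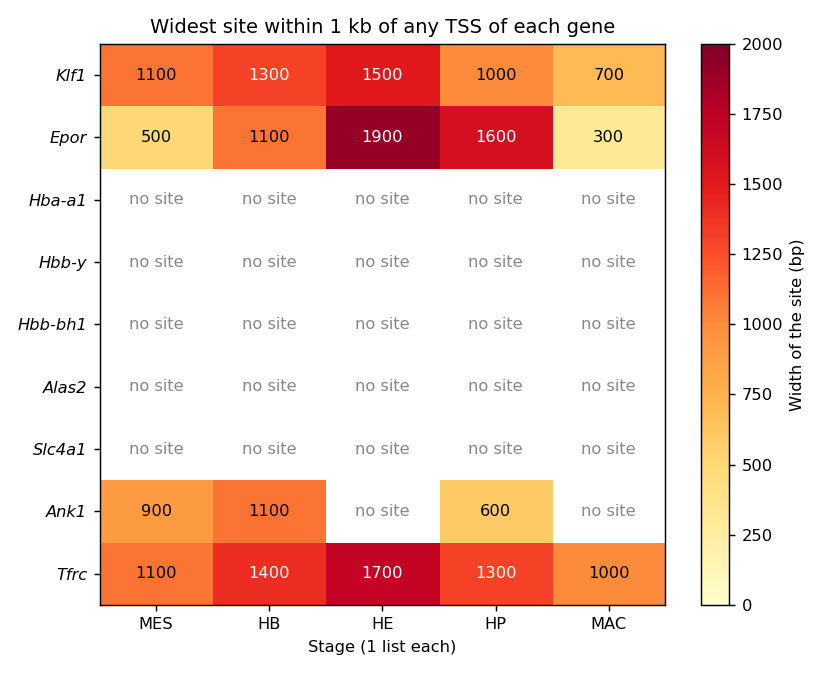
Width in bp of the widest site within 1 kb of a TSS of each gene, by stage, with 1 list per stage. Klf1, Epor and Tfrc have a site in all 5 stages, Ank1 in MES, HB and HP, and the 3 globin genes, Alas2 and Slc4a1 in none.

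At least 1 site was listed in the neighbourhood of 7 of the 9 genes in MES and HB, and of 9 in HE, HP and MAC. Over all genes the shares were 81.4% and 82.1% in MES and HB, and 84.9%, 78.0% and 82.6% in HE, HP and MAC. The genes without a site in MES and HB were Hbb-y and Hbb-bh1, which share their sites. In all, 71, 73 and 89 sites were listed in MES, HB and HE, and 76 in both HP and MAC, each site counted once. HP and MAC thus gave equal numbers here from lists of 17734 and 37456 sites.

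**Figure D5:**
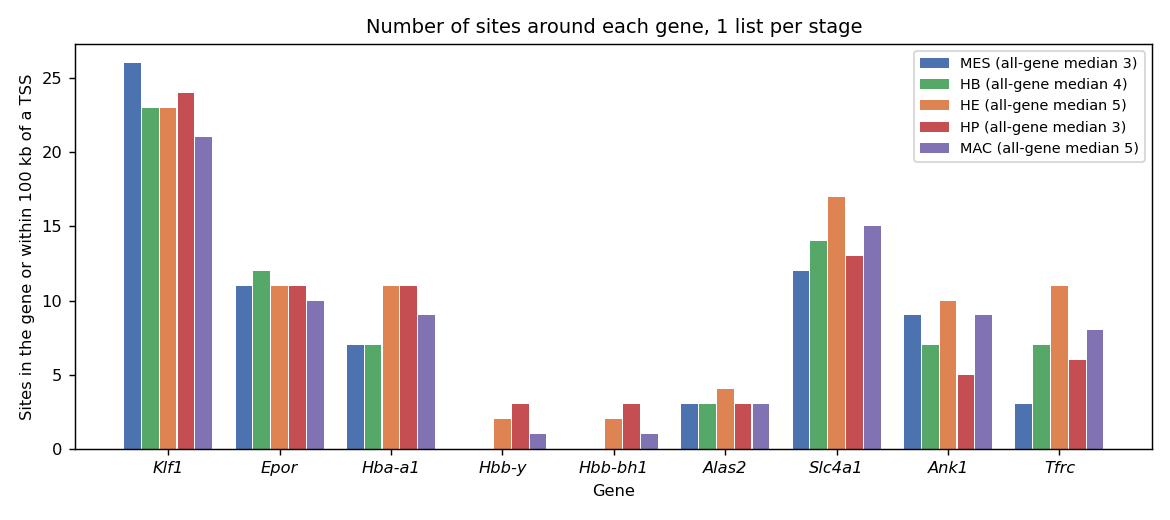
Number of sites in each gene or within 100 kb of its TSSs, as bars for each stage, with the median over all protein-coding genes in the key. Klf1 has the most in every stage (21 to 26), and Hbb-y and Hbb-bh1 have none in MES and HB.

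After merging across stages, 156 of 68842 regions lay in the neighbourhoods, and 12 of them (7.69%) were listed in HP alone, against 2.26% of all regions. Of these 12, 5 were those of the alpha cluster, 1 was HS3 and 1 was the repetitive inner site of Ank1. Regions of MAC alone were 23 of 156 (14.7%), against 31.0% of all, and regions of all 5 stages 36 (23.1%), against 13.2%. Counting only regions that lay more than 2 kb from protein-coding TSSs, 35 of 86 (40.7%) were listed in HP, against 14.9% of 50519. Of these 35, 10 were listed in all 5 stages, 11.6% of the 86 against 2.86% of all such regions. They count towards every stage, so the share in HP rests in part on regions not particular to HP. HP alone accounted for 7 of 86 (8.14%), against 2.60%. Listed in HE or HP and in neither MES nor HB were 30 of 86 (34.9%), against 30.8%. The central 500 bases held AGATAA in 21 of the 86 (24.4%), against 27.6% of all such regions, and GCTGAGTCA in 4 (4.65%), against 2.66%. These shares are descriptions of neighbourhoods chosen by gene.

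The wider erythroid gene lists held 75 genes with a RefSeq symbol, of 77 given. A promoter site was listed for 50 of them in HE (66.7%) and 48 in HP (64.0%), against 42 in MES (56.0%), 44 in HB (58.7%) and 43 in MAC (57.3%), to be read against the shares of all genes given above. The heme synthesis genes other than Alas2 had a promoter site in 9 of 9 cases in MES, HB and HE and in 8 of 9 in HP and MAC, where Alas1, the enzyme of other tissues for the same step as Alas2, had none. The 16 erythroid transcription factors had one in 14 cases in HE, 10 in MES and 12 in each of HB, HP and MAC. Gata1, the master regulator of red cells, had no promoter site in any stage. The 18 genes of the red cell membrane and skeleton had one in 7 cases in MES and HB, 9 in HE and HP, and 5 in MAC. Iron and erythropoietin signalling counted 11 of 14 genes in MES, HB and HP and 12 of 14 in HE and MAC. Of the 11 other red cell genes, 5 were listed in MES, HB and MAC, 6 in HE and 7 in HP.

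A promoter site in HE or HP and none in MES was found for 13 of the 75 genes, against 7.53% of all genes. Epb42 and Gypc, which encode protein 4.2 and glycophorin C of the red cell membrane, had it in HE and HP alone, a pattern of 0.331% of all genes. Hba-x, Hemgn, Trim10 and Trim58 had it in HP alone. Hemgn encodes hemogen, a nuclear protein of blood cells, and Trim58 a ubiquitin ligase of late red cell precursors. A promoter site in HP alone was rare, with 36 genes (0.165% of all), and the lists held 4 of these. Nfe2 and Tal1 had one from HB onward, Stat5b in HE, HP and MAC, Isg20 in HE and MAC, and Ldb2 and Myb in HE alone.

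Among the list genes, 35 had the promoter pattern of Klf1, Epor and Tfrc, a site in every stage, which 9155 genes share. A total of 16 had the pattern of the globin genes, Alas2 and Slc4a1, no site in any stage, which 7471 genes share. Those 16 included the other globin genes with a RefSeq symbol apart from Hba-x and Hbq1a, Gata1, the blood group genes Rhag, Rhd and Kel, and Slc25a37, the mitochondrial iron importer. Both are very common patterns.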

How the data were processed

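The deposited values were start and end positions of DHSs, in bp on mm10, 1 list per stage. According to the methods, the authors used CutAdapt for trimming, Bowtie for alignment and Picard for removing duplicates. Reads with a single place in the genome were kept, and DFilter found the sites in 100 bp bins. Versions are not given in the sources used here. The MAC label names 2 replicates, and how they were combined is not given.

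Positions were compared with RefSeq on GRCm38.p6 using Python 3.11.15, pandas 2.3.3 and pysam 0.24.0. Distances ran from the nearest edge of a site. For merging, each site became a 500 bp window around its middle, and windows overlapping by at least 125 bp were joined. Deposited sites that overlap can thus fall in separate regions. Merging the deposited intervals instead gave 141 regions in the neighbourhoods, against 156. Elements were overlapped by at least 1 bp. The scripts that place sites at promoters, merge sites and find letters were first checked on simulated positions and sequences with known answers. All 9 genes were named in the text, and of the erythroid lists those with a promoter site in HE or HP and none in MES. One gene of these lists is not reported here by name. The genes and lists were chosen with earlier results of these data known. No test between stages was made, because each stage had 1 list.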

Additional observations from a re-analysis of the deposited data

How the results depend on the processing

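No paired analysis was possible because each stage had 1 list and no replicate numbers were shared. Of 124 comparisons of a count or share with its value under another setting, 89 stayed within 1.5 times and 35 did not. With a promoter reach of 2 kb, 5 of the 9 genes had a promoter site in HE, Alas2 and Ank1 being added, and 5 in HP, Slc4a1 being added, so that Alas2 and Slc4a1 then had one in HE or HP and none in MES. With a reach of 50 kb, the neighbourhoods held 47 sites in HE, 39 in HP, 37 in both MES and HB, and 34 in MAC. With only 50 kb upstream of the clusters, the alpha window held 3 sites in MES, 2 in HB, 3 in HE and 3 in MAC, and the beta window 1 in HE.

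Width was the only property by which a list could be made stricter. When each list was limited to sites of its median width or more, the neighbourhoods held 39 sites in MES, 55 in HE, 40 in HP and 40 in MAC, the alpha window 5 in HE against 2 in HP, with 1 in MES, 3 in HB and 2 in MAC, and the beta window 1 in HE, 1 in HP and 0 in MAC. When every list was shortened to as many of its widest sites as HP has, which leaves HP whole, the neighbourhoods held 55 in HE and 38 in MAC, the alpha window 2 in MAC, and the beta window 1 in HE and 0 in MAC. The annotated erythroid elements were counted again in the same way, an alternative chosen after seeing the data. At or above the median width, HP overlapped 1 in the alpha cluster, and HE, HP and MAC overlapped 0, 0 and 0 in the beta cluster. With the widest sites, HE and MAC overlapped 0 and 0 in the beta cluster. Of the 86 distal regions of the neighbourhoods, 12.8% held AGATAA in the central 200 bp and 57.0% any of the 4 GATA forms in the central 500 bp, against 12.8% and 58.5% of all 50519. The cause of these shifts was not tested. Depth limits all counts and was not taken into account.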
